A study of Rattus norvegicus with 6 samples.

Results

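Imprinted genes of the placental and fetal growth network, with *Igf2* set aside, were examined in the lateral ventricular choroid plexus of the rat at embryonic day 15 (E15) and in the adult. The group was a list of 10 genes, *Dlk1*, *Peg3*, *Mest*, *Cdkn1c*, *Plagl1*, *Grb10*, *Ndn*, *Magel2*, *Sgce* and *Phlda2*, matched by gene symbol to the deposited table of names. Of these, 6 were found (*Dlk1*, *Plagl1*, *Grb10*, *Ndn*, *Magel2* and *Phlda2*) among 29479 gene identifiers, and *Peg3*, *Mest*, *Cdkn1c* and *Sgce* were not analysed here. The table of names covers genes that the study had already called different between the ages on these same pools. The counts of called members, neighbours and listed genes below are therefore not independent evidence of a difference. Genes that did not change could hardly enter them.

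The plexus tissue came from untreated Sprague-Dawley rats, either E15 embryos or adults of 6 weeks. At each age 3 pools were sequenced as 1 library each, and a pool held the left and right plexuses of 10 animals, so the spread between libraries is one between pools and not between animals. The whole dissected plexus was used, which holds stroma, vessels and blood as well as epithelium. In such tissue, fewer cells of a type and less RNA per cell cannot be told apart. Libraries held between 17875089 and 19204440 counts, and the 10 most abundant genes of each took 4.86 to 5.90% of them at E15 and 24.2 to 27.3% in the adult. All 9 measured markers of choroid plexus epithelium were higher in the adult, while 8 of 10 mesenchymal and 8 of 8 endothelial markers were higher at E15. So were 8 of 8 erythroid markers, 7 of 7 neural progenitor markers and 7 of 7 proliferation markers, with median log2 fold changes of 5.08, 4.13 and 5.29.

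Imprinted genes are expressed mainly or only from the copy inherited from 1 parent, because the gametes mark regulatory DNA with different methylation. Many of them act on growth before birth, those expressed from the paternal copy often promoting it and those expressed from the maternal copy often restraining it. Several lie in clusters that share an imprinting control region. The counts used here add both parental copies together, so imprinting itself was not measured.

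The starts of the genes of largest fold, and of a neighbouring imprinted pair, are shown because imprinting marks fall on CpG sites. Each sequence is the 250 bases before the RefSeq start (GRCr8), read 5′ to 3′ on the strand of the gene, with each CpG in capitals. *Grb10* lies at chr14:90816388-90816637 on the minus strand, and the others are on the plus strand, *Dlk1* at chr6:134192347-134192596, *Ndn* at chr1:125260809-125261058 and *Magel2* at chr1:125291783-125292032.
Grb10: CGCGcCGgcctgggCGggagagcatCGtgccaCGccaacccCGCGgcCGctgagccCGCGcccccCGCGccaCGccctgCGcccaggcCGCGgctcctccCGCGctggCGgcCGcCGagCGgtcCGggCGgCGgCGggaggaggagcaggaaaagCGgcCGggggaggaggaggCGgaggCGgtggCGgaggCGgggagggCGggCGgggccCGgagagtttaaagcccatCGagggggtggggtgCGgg
Dlk1: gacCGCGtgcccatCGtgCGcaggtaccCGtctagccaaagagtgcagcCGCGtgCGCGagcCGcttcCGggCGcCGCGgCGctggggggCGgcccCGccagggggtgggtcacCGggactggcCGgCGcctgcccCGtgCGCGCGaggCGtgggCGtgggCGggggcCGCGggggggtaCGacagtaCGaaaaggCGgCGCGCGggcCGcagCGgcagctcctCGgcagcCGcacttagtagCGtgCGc
Ndn: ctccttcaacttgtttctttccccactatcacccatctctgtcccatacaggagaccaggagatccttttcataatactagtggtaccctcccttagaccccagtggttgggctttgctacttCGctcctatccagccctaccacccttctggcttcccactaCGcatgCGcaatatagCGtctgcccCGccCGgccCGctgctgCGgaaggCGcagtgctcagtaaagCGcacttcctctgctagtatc
Magel2: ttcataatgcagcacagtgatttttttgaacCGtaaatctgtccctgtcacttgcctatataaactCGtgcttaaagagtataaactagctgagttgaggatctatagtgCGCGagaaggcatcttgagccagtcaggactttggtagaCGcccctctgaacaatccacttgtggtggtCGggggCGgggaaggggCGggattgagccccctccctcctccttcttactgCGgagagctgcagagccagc

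*Dlk1* held 41 CpG sites in this window and *Grb10* 38, more than 99.0% and 98.3% of 33469 RefSeq promoter windows of the same length, whose median was 5. *Plagl1* held 23 CpG sites, *Phlda2* 19, *Ndn* 10 and *Magel2* 9. The hexamer TGCCGC, the core of the site bound by the imprint-protecting zinc finger protein ZFP57, was searched on both strands. It occurred once in *Dlk1* and once in *Plagl1*, and at least once in 8.91% of all windows. The GC box GGGCGG was present in all 6 members and in 30.5% of all windows, and TATAAA occurred only in *Magel2* among them, with 2 copies, against 12.9% of all windows that hold it. A letter match is a description of the reference sequence and shows neither binding nor methylation.

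All 6 members found were higher at E15 by edgeR's quasi-likelihood test (adjusted p below 0.05 by Benjamini-Hochberg over 16643 genes), by 2.63-fold for *Ndn* to 50.0-fold for *Grb10*. None was called in the adult, and none had an unadjusted p below 0.05 in that direction, nor did DESeq2, limma-voom or the exact test with a common dispersion call any. This follows from the direction of the members at E15 and is no further evidence. Of all genes tested 64.0% were called, 34.7% at E15 and 29.3% in the adult. Among genes with a name 92.8% were called and 50.6% were called at E15. In all 6 members the lowest E15 pool lay above the highest adult pool, which held for 38.0% of all genes tested and for 51.7% of those with a name. The members' fold changes can be read against a median log2 fold change, E15 over adult, of 0.14 over all genes tested and 0.73 over those with a name.

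**Figure D1:**
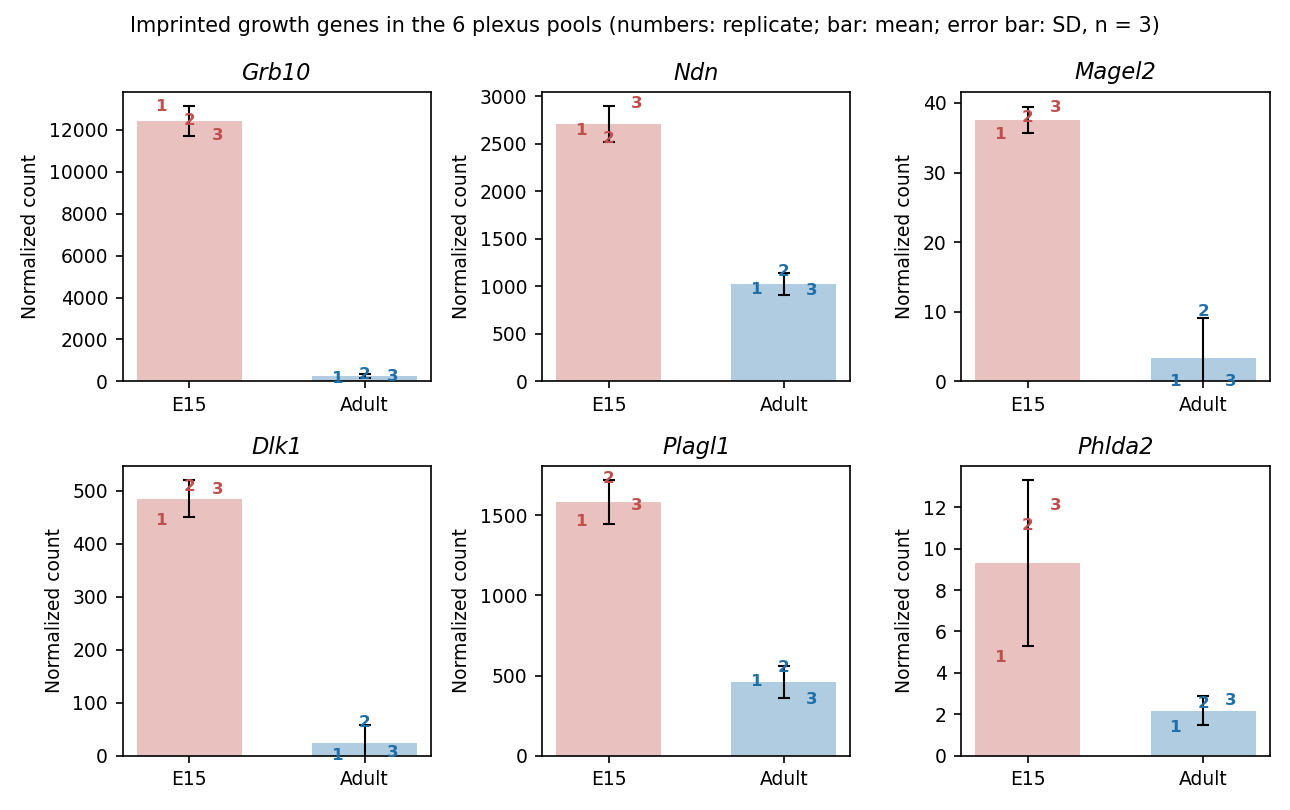
Normalized counts (TMM, linear axis starting at 0, a separate scale for each gene) of the 6 members in each pool. Digits mark the replicate, bars the mean and error bars the SD (n = 3). Every E15 pool lies above every adult pool in each panel, and adult pool 2 is the highest adult pool in 5 of the 6.

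*Grb10* encodes an adaptor protein that binds the insulin and IGF1 receptors and restrains their signalling, and it is expressed from the maternal copy in most tissues. Its raw counts (ENSRNOG00000004290) were 16637, 16791 and 15484 at E15 against 117, 275 and 181 in adult pools. Normalized to a common library size, this was 12429 ± 711 at E15 against 248 ± 92.5 in the adult (SD, n = 3 each). The 3 E15 pools lay close together, with a coefficient of variation of 5.72%, and the lowest of them was 34.0 times the highest adult pool. The log2 fold change was 5.64 (SE 0.25), a 50.0-fold enrichment at E15 (edgeR quasi-likelihood, adjusted p = 1.17e-07). By fold change *Grb10* ranked 67 among the 3720 genes with a mean normalized count over 1000 at E15. Leaving out 1 library at a time gave log2 fold changes of 5.38 to 5.92.

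The genes whose pattern over the 6 libraries was most like that of *Grb10*, by the root mean square difference of centred log2 counts over 9898 named genes, were *E2f8* (0.142), *Gfra1* (0.195) and *Nid1* (0.199). *E2f8* encodes a transcriptional repressor of the E2F family, *Gfra1* a receptor for the growth factor GDNF and *Nid1* a basement membrane protein. Raw counts of *E2f8* were 607, 469 and 484 at E15 against 3, 8 and 6 in adult pools. With 2 groups of libraries set far apart, this is mainly a likeness of fold.

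Other genes of insulin and IGF receptor signalling moved in both directions. Of 18 listed genes 8 were found, 5 higher at E15 and 3 higher in the adult, with a median log2 fold change of 1.03. The insulin receptor *Insr* was 2.54-fold higher in the adult, where its counts were 2119, 2428 and 2494 against 1482, 1683 and 1611 at E15. The receptor substrates *Irs1* and *Irs2* were higher at E15, with log2 fold changes of 1.10 and 1.72, as was the adaptor *Shc1* (1.75). *Grb14*, the family relative of *Grb10*, was also higher at E15, with a log2 fold change of 1.11 (SE 0.33, edgeR quasi-likelihood, adjusted p = 0.0154), a call lost without E15 pool 3 (adjusted p = 0.0524). The kinase gene *Akt1* (0.95) was higher at E15, and its relative *Akt2* (-0.92) and the exchange factor gene *Sos1* (-0.60) were higher in the adult with TMM scaling. Such small adult-side values depend on the scaling. Over all genes tested the median was 0.14 with TMM and 0.95 with total counts only.

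*Ndn* and *Magel2* encode proteins of the MAGE family, are expressed from the paternal copy and lie side by side in the cluster that is syntenic to the human Prader-Willi region. Necdin, the product of *Ndn*, is best known as a growth suppressor of postmitotic neurons, and MAGEL2 takes part in endosomal protein sorting. Raw counts of *Ndn* (ENSRNOG00000010146) were 3352, 3442 and 3868 at E15 against 707, 928 and 725 in adult pools. Its normalized level was 2707 ± 192 at E15 against 1029 ± 115 in the adult (SD, n = 3 each). *Ndn* had the smallest fold of the members found, with adult pools that still held 707 to 928 counts each. The log2 fold change was 1.40 (SE 0.12), or 2.63-fold (edgeR quasi-likelihood, adjusted p = 6.25e-06).

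*Magel2* (ENSRNOG00000010158) was a low count gene, with 45, 51 and 52 raw counts at E15 against 0, 8 and 0 in adult pools. All 8 adult counts came from adult pool 2, while the E15 pools were nearly equal. The fitted log2 fold change was 3.40 (SE 0.86, edgeR quasi-likelihood, adjusted p = 0.00641), and the ratio of the summed counts was 10.7 with an exact 95% interval of 5.31 to 25.4 that covers counting error only. Without adult pool 2, *Magel2* was at least 18.6-fold higher at E15, set against a floor of 3 counts over the remaining adult pools. Without adult pool 1 or 3 the fitted log2 fold change was 2.82 or 2.81.

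Along the chromosome, *Ndn* and *Magel2* were followed by *Mkrn3*, a gene for a RING finger protein, and *Peg12*, a gene related to the Frat regulators of Wnt signalling, and both are paternally expressed. All 4 consecutive genes were higher at E15. So were the next named genes, *Chrna7* (log2 fold change 2.74) and *Otud7a* (2.67), 5 and 6 places after *Ndn*. Without adult pool 2 these 2 values were 3.78 and 3.70, and without adult pool 3 that of *Otud7a* was 2.08. *Mkrn3* had counts of 141, 178 and 169 at E15 against 25, 28 and 27 in adult pools, a log2 fold change of 1.82 (SE 0.24). *Peg12* had counts of 150, 239 and 279 at E15 against 8, 3 and 4 in adult pools, a log2 fold change of 4.66 (SE 0.42), and here adult pool 2 was the lowest. *Snrpn*, a splicing factor gene of the same imprinted cluster that lies 5 places before *Ndn*, went the other way. It had 653, 675 and 705 counts at E15 against 866, 877 and 881 in adult pools, a log2 fold change of -1.15 (SE 0.11, edgeR quasi-likelihood, adjusted p = 1.16e-05). Its sign held when scaled by total counts only, at -0.35.

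**Figure D2:**
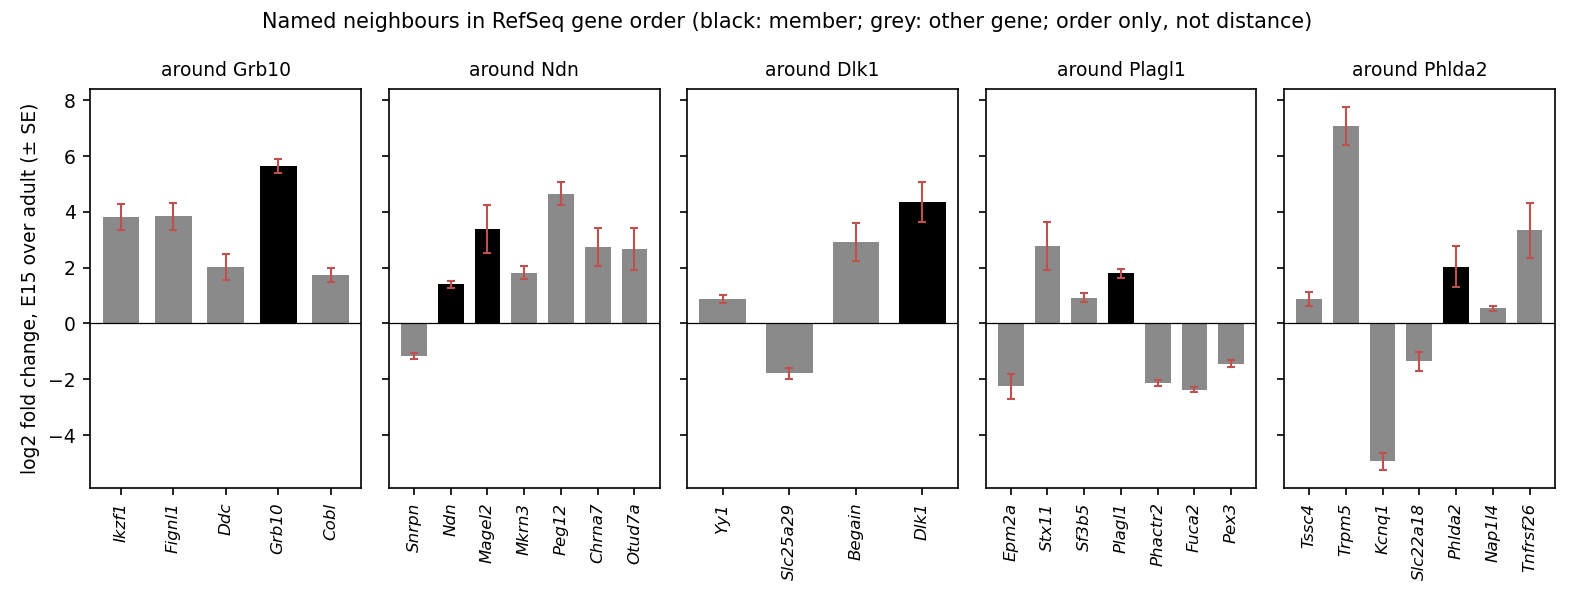
Log2 fold change, E15 over adult (bars, with SE as error bars), of the members (black) and their named neighbours (grey) within 6 protein-coding places on either side in the RefSeq order. Bars are spaced by order and not by distance. *Ndn*, *Magel2*, *Mkrn3* and *Peg12* all lie above 0. Named neighbours of *Ndn*, *Dlk1*, *Plagl1* and *Phlda2* lie on both sides of it, and those of *Grb10* above it.

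*Dlk1* encodes a transmembrane protein related to the Notch ligands, expressed from the paternal copy, that marks many immature cells and restrains their differentiation. Raw counts (ENSRNOG00000019584) were 564, 684 and 665 at E15 against 0, 50 and 5 in adult pools. Normalized, the level was 485 ± 34.8 at E15 against 23.1 ± 34.4 in the adult (SD, n = 3 each). The E15 pools were alike, but adult pool 2 held 90.9% of the adult counts. The log2 fold change was 4.35 (SE 0.73), or 20.4-fold (edgeR quasi-likelihood, adjusted p = 0.000583). Without adult pool 2 it was 7.09, and the ratio of counts was 145 with an exact 95% interval of 61.8 to 446, resting on 5 adult counts. Without adult pool 1 the log2 fold change fell to 3.76, and without adult pool 3 to 3.89.

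*Begain*, the neighbour of *Dlk1* and itself imprinted in some species, was also higher at E15, with 81, 74 and 93 counts against 6, 13 and 0 (log2 fold change 2.92, SE 0.67). This value was 3.89 without adult pool 2 and 2.32 without adult pool 3. The other named neighbours of *Dlk1* were divided. *Yy1* was higher at E15 (0.88), and *Slc25a29* was higher in the adult (-1.78), with 335, 400 and 339 counts against 131, 223 and 184. Among Notch ligands and receptors, 8 of 11 listed genes were found, 7 were higher at E15, none was higher in the adult, and the median log2 fold change was 3.22. *Notch3* (5.69), *Dll1* (3.75) and *Notch1* (3.69) were the largest with a mean count over 100, *Dll1* reaching 4.71 without adult pool 2. *Dner*, another ligand related to the Notch family, did not pass the test (-0.78, edgeR quasi-likelihood, adjusted p = 0.0502), but did without E15 pool 1 (-1.11, adjusted p = 0.00374). *Dll3* had 58, 28 and 83 counts at E15 and 0 in every adult pool.

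**Figure D3:**
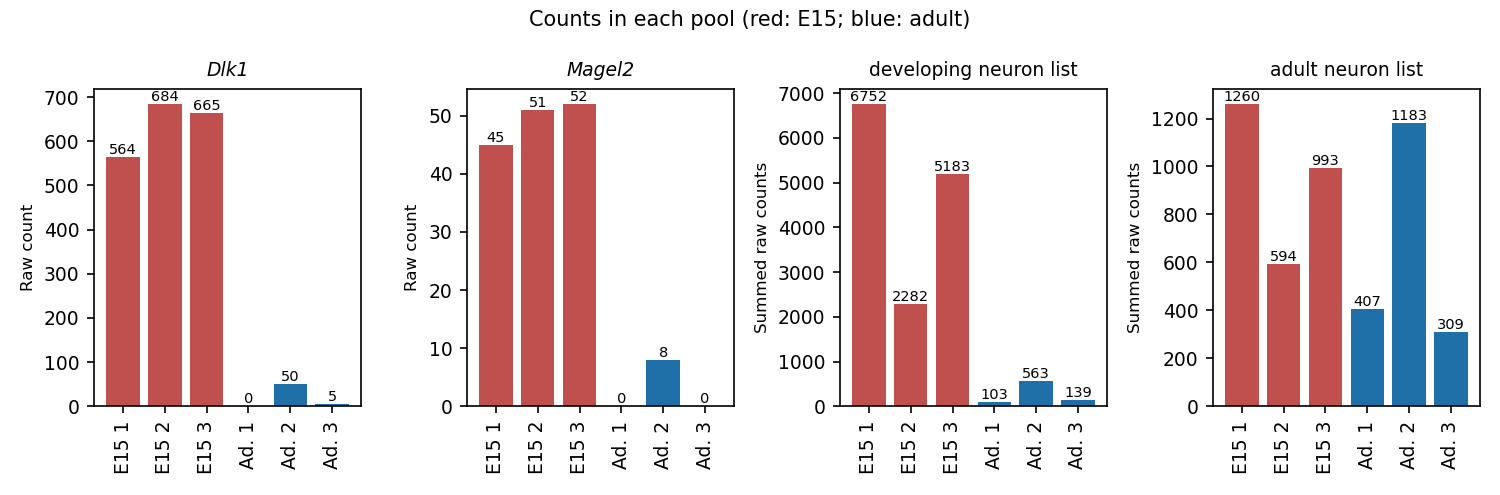
Raw counts of *Dlk1* and *Magel2*, and summed raw counts of 11 markers of developing neurons and 9 markers of adult neurons, in each pool (linear axes from 0; Ad., adult). Adult pool 2 is the highest adult pool in all 4 panels, while E15 pool 2 is the lowest E15 pool in both neuron lists but not for *Dlk1* or *Magel2*.

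Summed neuronal markers, like *Dlk1* and *Magel2*, were highest in pool 2 among the adult pools. The 11 markers of developing neurons summed to 103, 563 and 139 counts in the adult pools, with 7 of 11 highest in pool 2 and *Neurod6* and *Nhlh1* at 0 in all. Markers of adult neurons, a list added after the counts had been seen, summed to 407, 1183 and 309, with 8 of 9 highest in pool 2. Normalized, adult pool 2 was 18.9 times the mean of the other adult pools for *Dlk1*, 1.72 times for *Grb10*, 1.35 times for *Plagl1* and 1.21 times for *Ndn*. This ratio was 4.34 for developing neuron and 3.07 for adult neuron markers. It was 1.60 for erythroid, 1.38 for neural progenitor, 1.32 for endothelial, 1.20 for macrophage and 1.04 for mesenchymal markers, and 1.54 for the Notch list. For proliferation, epithelial and oligodendrocyte markers it was 0.978, 0.921 and 0.660. Adult pool 2 was the highest adult pool for 5 of the 6 members, as it was for 33.1% of all genes tested. The part of neuronal tissue in the adult values of the members was not tested.

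The E15 pools gave another order. Developing neuron markers summed to 6752, 2282 and 5183 counts, and all 11 were lowest in pool 2, which was 0.366 times the mean of the other E15 pools after normalization. In that same pool *Dlk1* was 1.07 times the mean of the others, *Plagl1* 1.14 times and *Ndn* 0.918 times, and *Grb10* lay between the other E15 pools. By chi-square per degree of freedom of raw counts, E15 pool 1 stood apart, at 56.8 and 47.5 from pools 2 and 3. Pools 2 and 3 were at 5.43, and adult pairs at 8.36 to 12.5. E15 pool 1 was 1.90 times the mean of the others for developing neuron and 0.743 times for endothelial markers. For *Dlk1*, *Plagl1*, *Grb10* and *Ndn* it was 0.881, 0.887, 1.09 and 0.965 times. The part of neuronal tissue in the E15 values was not tested. Mesenchymal markers summed to 57374, 80894 and 69007 counts at E15 against 13610, 15118 and 13392 in adult pools, with none of the 10 at 0 in the adult. Endothelial markers summed to 10985, 17027 and 14134 at E15 against 730, 1119 and 852 in adult pools. Erythroid markers summed to 38876, 53068 and 40074 against 108, 265 and 202, neural progenitor markers to 34021, 38489 and 37504 against 1698, 2605 and 1820, and proliferation markers to 17090, 14890 and 16903 against 1532, 1705 and 1718. 1 erythroid marker and 1 proliferation marker were at 0 in every adult pool. The part of these cell types in the difference between the ages was not tested.

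*Plagl1* encodes a zinc finger transcription factor, expressed from the paternal copy, that halts the cell cycle and is known to regulate other imprinted genes. Raw counts (ENSRNOG00000025587) were 1852, 2331 and 2068 at E15 against 341, 442 and 267 in adult pools. The normalized level was 1585 ± 136 at E15 against 457 ± 100.1 in the adult (SD, n = 3 each), and the lowest E15 pool was 2.64 times the highest adult pool. The log2 fold change was 1.79 (SE 0.17), or 3.46-fold (edgeR quasi-likelihood, adjusted p = 1.15e-05).

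The relatives of *Plagl1* were also higher at E15, *Plag1* with a log2 fold change of 1.51 and *Plagl2* with 2.10. *Sf3b5*, a splicing factor subunit gene next to *Plagl1*, was higher at E15 (0.92), but *Phactr2* (-2.13), *Fuca2* (-2.37) and *Pex3* (-1.45), 4 to 6 places away on the other side, were higher in the adult, as was *Epm2a* (-2.26). *Stx11*, 2 places from *Plagl1*, was also higher at E15 (2.79), with 10, 31 and 34 counts against 2, 0 and 4. Its call was lost without E15 pool 2 or 3 or adult pool 1. The higher level of *Plagl1* at E15 was thus shared by the named neighbours within 2 places but not by those 4 to 6 places away.

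*Phlda2* encodes a small protein with a pleckstrin homology domain, expressed from the maternal copy, that is best known for limiting placental growth. It was the least abundant member in these libraries by count, with 6, 15 and 16 raw counts (ENSRNOG00000020614) at E15 against 1, 2 and 2 in adult pools. The pools of the ages did not overlap, but the lowest E15 pool was only 1.79 times the highest adult pool after normalization. The log2 fold change was 2.04 (SE 0.75, edgeR quasi-likelihood, adjusted p = 0.0373), and the ratio of counts was 4.30 with an exact 95% interval of 1.69 to 14.0. *Phlda2* passed the threshold in only 6 of 15 alternatives, with adjusted p from 0.00382 to 0.130, and missed it by DESeq2 (adjusted p = 0.0778) and limma-voom (0.0573). Its direction held in all 15.

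Neighbours and relatives of *Phlda2* were divided. *Slc22a18*, the imprinted transporter gene beside it, was higher in the adult (log2 fold change -1.36), and so was the potassium channel gene *Kcnq1* (-4.94), with 371, 494 and 430 adult counts against 11, 29 and 32. *Nap1l4* on the other side (0.54) and *Tssc4* (0.88) were higher at E15. The cation channel gene *Trpm5* had the largest fold among the neighbours, with 196, 459 and 343 counts at E15 against 4, 0 and 0, a ratio of 145 with an exact 95% interval of 56.4 to 533. *Tnfrsf26*, a gene of the TNF receptor superfamily, had 10, 20 and 27 counts against 0, 0 and 3, a ratio of 11.0 with an interval of 3.59 to 55.1, and was called at E15 but not without E15 pool 3 (edgeR quasi-likelihood, adjusted p = 0.0591). Of its family, *Phlda1* was 37.1-fold higher at E15 and *Phlda3* 13.1-fold higher in the adult. Over the PLAG, MAGE and PHLDA relatives 7 of 10 were found, 4 higher at E15 and 3 in the adult, with a median of 1.51. The MAGE relatives were *Maged2*, higher at E15 (1.53), and *Magee1* (-1.12) and *Magee2* (-0.60), higher in the adult with TMM scaling.

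Over all members, the RefSeq order gave 24 named neighbours that were tested, of which 16 were higher at E15 and 8 in the adult. Their median log2 fold change was 1.34, beside 0.73 over all genes with a name. Neighbours without a name could not be counted. Among all genes with a name 92.8% were called and 50.6% were called at E15. *Grb10* was flanked by *Ddc*, the dopa decarboxylase gene that shares its imprinted domain (2.01), and by the actin nucleator gene *Cobl* (1.75), both higher at E15. The fitted fold of *Grb10* was larger than those of these neighbours, of *Ikzf1* (3.81, or 4.57 without adult pool 2) and of *Fignl1* (3.84). A wider list of 30 genes written as neighbours of the 10 symbols leaned the other way. It had 17 found, 8 higher at E15 and 9 in the adult, with a median log2 fold change of -1.15. Among the 9 were *Pon1* (-8.19), *Kcnq1* (-4.94) and *Pon3* (-3.50), and among the 8 were *Mkrn3* (1.82), *Cobl* and *Tssc4* (0.88).

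Other imprinted genes were called in both directions. Of 55 other genes listed as imprinted in rodents, 30 were found, of which 13 were higher at E15, 15 were higher in the adult and 2 did not pass the test, with a median log2 fold change of -0.60. The largest at E15 with a mean count over 100 were *Peg12*, the flippase gene *Atp10a* (3.12, or 3.77 without adult pool 2) and *Nnat* (2.39), which encodes neuronatin, a small membrane proteolipid. *Nnat* was also abundant, with 9148, 12993 and 12794 counts at E15 against 1241, 1469 and 1168 in adult pools. In the adult they were *Kcnq1*, *Nap1l5* (-3.78) and *Igf2* (-3.72), the growth factor gene, with 233359, 243569 and 237728 adult counts against 29813, 33861 and 29871. Only genes with a name could be counted, and the balance depends on scaling: with total counts only 14 were called at E15 and 7 in the adult, and with totals that leave out the 10 most abundant genes 14 and 9.

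Several imprinted genes of the adult side rested on adult pool 2, as *Dlk1* and *Magel2* did for their adult counts. *Nap1l5* had 16, 514 and 44 adult counts and was not called without that pool (log2 fold change -1.22, edgeR quasi-likelihood, adjusted p = 0.227), nor without E15 pool 3 (adjusted p = 0.0532), while without E15 pool 1 the log2 fold change was -5.00. *Calcr*, the calcitonin receptor gene, had 1, 240 and 22 and was not called without it either (-0.33, adjusted p = 0.757 by the same edgeR test). It was lost too without E15 pool 2 or 3 (adjusted p = 0.0762 and 0.0841 by edgeR) and was -3.74 without adult pool 1. *Rasgrf1* had 10, 155 and 21 adult counts against 0, 0 and 1 at E15, a ratio of 320.3 with an exact 95% interval of 56.8 to 12717. Without adult pool 2 the ratio was 82.0 (13.7 to 3343) and the fitted log2 fold change went from -7.72 to -5.85, still called, and without E15 pool 3 it was -9.28. *Kcnk9*, a potassium channel gene, had 22 counts in adult pool 2 and 0 in every other library, and did not pass (edgeR quasi-likelihood, adjusted p = 0.0522), though it did without adult pool 1 or 3 (adjusted p = 0.0375 and 0.0420).

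**Figure D4:**
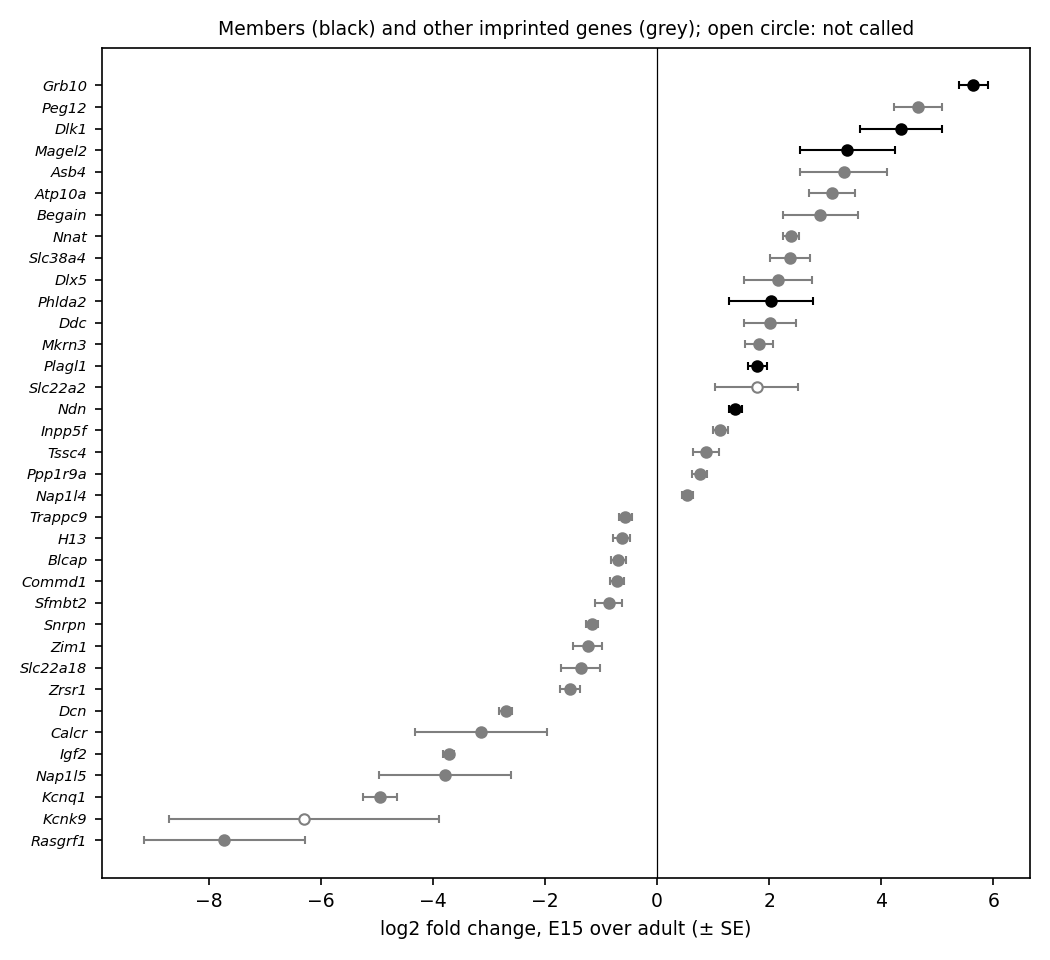
Log2 fold change, E15 over adult, with SE, of the 6 members (black) and the 30 other imprinted genes found (grey), in order of size; an open circle marks a gene that did not pass the test. The members all lie to the right of 0, whereas the other genes lie on both sides, *Grb10* being farthest to the right and *Rasgrf1* farthest to the left, a value that rests on 1 E15 count and mostly on adult pool 2.

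For *Cdkn1c* and *Sgce*, which were not analysed here, the lists of their pathways gave the following. Of 14 listed CDK inhibitors and G1 cell cycle genes 5 were found, 4 higher at E15 and 1 in the adult. The cyclin genes *Ccne1* and *Ccnd1* were 7.88-fold and 5.21-fold higher at E15, and the inhibitor *Cdkn1a* was 2.39-fold higher in the adult. Of 14 genes of the dystrophin-glycoprotein complex 8 were found, 2 higher at E15 and 6 in the adult. The sarcoglycan gene *Sgcd* was higher at E15 (log2 fold change 3.72), as was *Dtnb* (0.59), whose call was lost without E15 pool 2 or 3 or adult pool 1. The sarcoglycan genes *Sgca* (-3.02, or -4.09 without E15 pool 3) and *Sgcb* (-1.20) were higher in the adult. *Sgcd* and *Sgca* were named after their values were seen. The median log2 fold change of the 8 genes was -0.72 with TMM scaling. This lean depends on the scaling, as the median over all genes tested was 0.14 with TMM and 0.95 with total counts only.

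The direction of all 6 members held under every scaling, filter, test and left-out library in which they were tested. With total counts only, the median over all genes tested moved on the log2 scale from 0.14 to 0.95. Small adult-side values, such as those of *Sos1* and *Magee2*, are therefore not settled in sign. Relative to the median under each scaling, *Grb10* lay between 5.50 and 5.51, *Ndn* at 1.25 to 1.26 and *Plagl1* at 1.65 across the 4 other scalings. A scaling shifts all genes nearly alike, so this closeness follows from the subtraction and tests nothing about the members. *Grb10*, *Ndn*, *Dlk1* and *Plagl1* passed the threshold in 17 of 17 alternatives and *Magel2* in 16 of 16.

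**Figure D5:**
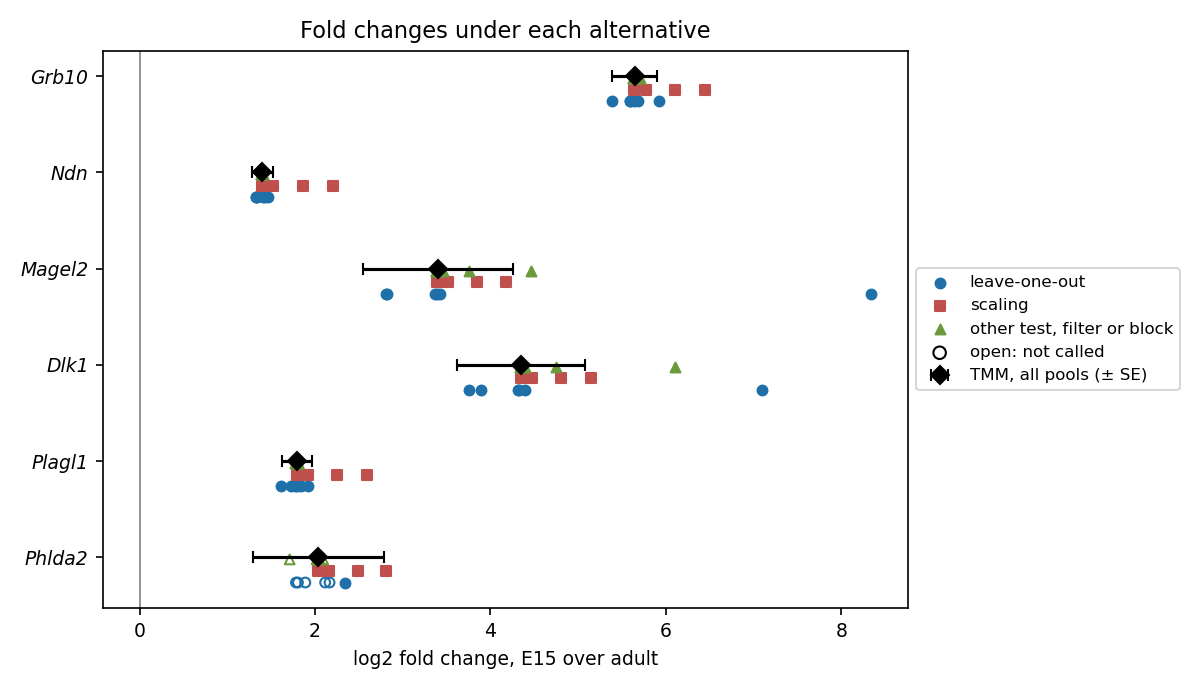
Log2 fold change, E15 over adult, of each member with TMM scaling and all pools (diamond, with SE) and under each alternative (circles, a library left out; squares, another scaling; triangles, another test, filter or the replicate block). Open symbols did not pass the threshold and occur only for *Phlda2*; the circles far to the right for *Magel2* (8.34) and *Dlk1* (7.09) are the values without adult pool 2, and that of *Magel2*, with 0 adult counts, is no bound.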

How the data were processed

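RNA of lateral ventricular choroid plexus was sequenced in 3 pools at E15 and 3 in the adult. Samples were grouped by age as labelled, and no library was left out. Deposited values were raw counts for each Ensembl identifier. The authors trimmed the reads, aligned these by Bowtie 0.12.7 against rat Ensembl release 61, discarded reads without a unique place and counted the rest with HTSeq 0.4.7p4. Whether counting used strand is not given in the sources used here. A second table by the authors, from edgeR 2.4.0, holds for genes they called a log2 fold change, a log2 abundance, and deposited p-values with their adjusted values. It was used for names only, which covered 10093 identifiers, 503 by way of a RefSeq accession given in that table.

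Members were matched by name, and their counts taken by identifier. The members and gene lists were chosen with earlier results of these data known. Genes named were all members found, the 3 largest fold changes in each direction of a list among called genes with a mean count over 100 at the higher age, relatives and neighbours described beside a member, and the 3 genes most like the member of largest change (log2 with a pseudocount of 0.5). The results of some other genes of these lists were left out and are not reported here. *Kcnk9*, *Calcr*, *Rasgrf1*, *Snrpn*, *Dner*, *Dll3*, *Trpm5*, *Tnfrsf26*, *Sgcd*, *Sgca*, *Yy1*, *Slc25a29*, *Chrna7*, *Otud7a* and *Stx11* were named after their values were seen.

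Ages were compared with edgeR 4.0.16 (R 4.3.3; TMM, glmQLFit, glmQLFTest), age the only term, on 16643 genes with more than 10 counts in all. P-values were adjusted by Benjamini-Hochberg, threshold 0.05. They measure the spread between pools. The biological coefficient of variation was 18.2%. Normalized counts are counts scaled to a library size of 18568563. Floors (3 counts over an age) and exact 95% binomial intervals cover counting error only. On counts simulated for 16444 genes of this comparison, the test recovered 89 of 100 genes changed 2-fold and 100 of 100 changed 4-fold. It called 11 unchanged genes. Changed genes were few, drawn from those of higher count, and equally many up and down, at 1 dispersion and with no pool set apart. These rates do not cover counts as low as those of *Phlda2*. Nor do they cover adult counts mostly from 1 pool, as for *Dlk1* and *Magel2*. Alternatives were 4 scalings, 3 filters, DESeq2 1.42.0, limma-voom (limma 3.58.1), the exact test of edgeR at 1 common dispersion, a replicate block and each library left out. Promoter windows and gene order came from RefSeq (GRCr8), which differs from the build of the counts, so no position of a count is given. Gene lengths were not used, so levels are not compared between genes. Lists and figures used Python 3.11.15, pandas 2.3.3, numpy 2.4.6, scipy 1.17.1 and matplotlib 3.10.9.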

Additional observations from a re-analysis of the deposited data

How the results depend on the processing

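The number of members called at E15, 6, was 6 under all 4 other scalings and the exact test, 5 by DESeq2, by limma-voom, with filterByExpr and with no filter, and 4 with a mean count above 100, where *Magel2* and *Phlda2* were not tested. It was 5 to 6 with 1 library left out. *Phlda2* was the member lost wherever 5 were called, and filterByExpr did not keep it. No member was called in the adult under any alternative. Other imprinted genes called at E15 numbered 13 and ranged from 9 to 14. Those called in the adult, 15, were 7 with total counts only and 9 with totals that leave out the 10 most abundant genes. With 1 library left out they were 12 to 16. The 10 most abundant genes took a larger share of the adult libraries.

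The labels number the replicates 1 to 3 at both ages. Deviations from the age means of same-numbered libraries correlated at -0.007, -0.011 and -0.039, and no library matched its own number best. No sign of pairing was thus seen, but whether same-numbered libraries shared a step of preparation is not given by the labels. With the replicate block 5 members were called at E15, *Phlda2* being lost (adjusted p = 0.103, edgeR quasi-likelihood), with 13 other imprinted genes called at E15 and 14 in the adult.

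Counts of 0 to 16 in an age limit *Magel2* in the adult and *Phlda2* at both ages. *Phlda2* was not called without adult replicates 1, 2 or 3 (adjusted p = 0.0993, 0.0691 and 0.0638) or without E15 replicates 2 or 3 (0.117 and 0.130, edgeR quasi-likelihood).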
